A study of Mus musculus with 9 samples.

Results

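A set of 10 genes of periostin and transforming growth factor beta (TGF-beta) signalling were followed through embryonic cochlear ducts with and without the transcriptional regulator PRDM16. The genes, 10 of 54232 counted in each library, were named from the pathway: the matrix proteins Postn and Tgfbi, the ligands Tgfb1, Tgfb2 and Tgfb3, the receptors Tgfbr1, Tgfbr2 and Tgfbr3, and the latent binding proteins Ltbp1 and Ltbp3. RNA came from E14.5 mouse embryos of an FVB/NJ strain carrying cGT, a gene trap null allele of Prdm16. The 3 groups were WT littermates without the allele, heterozygotes with 1 cGT allele (cGT/+) and null embryos with 2 (cGT/cGT). Each group had 3 embryos, the labels name no treatment, and each library held the ducts dissected from both ears of 1 embryo.

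TGF-beta ligands are secreted in latent complexes that LTBPs tether to the matrix, and integrins or proteases release them. Free ligand binds a type II receptor, which recruits and phosphorylates a type I receptor, and the type I receptor activates SMAD2 and SMAD3. Periostin and TGFBI are secreted proteins built of fasciclin domains, and TGFBI owes its name to its induction by TGF-beta. In the developing ear the pathway is known for signals between the duct epithelium and the periotic mesenchyme around it. PRDM16 is known to bind SKI and SMAD proteins.

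Levels are read counts scaled to a common library size (CPM) with TMM factors, which correct for library composition. Total counts were 24095322 to 30819118 per library, so that 3 counts, taken as the floor, equalled 0.0973 to 0.125 CPM, a limit that covers counting error only. Prdm16 itself was at 184 to 225 CPM in WT, 123 to 151 in heterozygotes and 19.1 to 27.4 in null embryos. The null level differed from WT by -3.12 on the log2 scale (edgeR quasi-likelihood test with Benjamini-Hochberg adjustment, adjusted p = 1.48e-04). Markers of the duct epithelium were high in each library, with Oc90 at 7243 CPM or more and Epcam at 603 or more. Their summed CPM over 10 genes was 9637 to 11020 in WT, 11370 to 11750 in heterozygotes and 12430 to 16490 in null embryos. Libraries also differed in RNA of other tissues. The summed CPM of 16 mesenchyme markers was 711, 1277 and 1666 in WT 1, WT 2 and null 3, against 47.0 to 151 in the other 6 libraries, and 15 of the 16 genes were higher in each of the former. The leading mesenchyme genes, Col1a2 and Col3a1, followed the sum, all 5 endothelium markers and 4 of 5 macrophage markers were raised in the same 3 libraries, and cartilage markers reached 13750 CPM in null 3 against 6478 to 7532 elsewhere. Muscle markers summed to 1.01 CPM or less, and no gene of these lists was at 0 in all 9 libraries. Melanocyte markers, 4 genes led by Dct and Pmel, summed to 50.8 to 122 CPM in WT, 19.0 to 37.6 in heterozygotes and 11.3 to 39.8 in null embryos, so that WT did not overlap the others, and all 4 had an unadjusted p under 0.05 in null against WT in edgeR. Erythroid markers, led by Hbb-bs and Hba-a1, summed to 83.4 to 234 CPM in WT, 35.0 to 55.6 in heterozygotes and 57.0 to 117 in null embryos. The part of either in the results below was not tested. WT 1, WT 2 and null 3 are called mesenchyme-high below. Values without them come from 1 fit of the other 6 libraries, in which 1 WT library (WT 3), 3 heterozygotes and 2 null embryos remain, so that WT 3 is assumed to vary as the other groups do and the p-values are limited by that.

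The sequences just before the start of 4 members are shown because these are the gene that changed with genotype (Postn), a matrix protein and a receptor that were highest in the mesenchyme-high libraries (Tgfbi, Tgfbr2) and the most abundant ligand (Tgfb2). They come from RefSeq on GRCm38.p6, 5′ to 3′ on the gene's strand, and end before the annotated start. The Postn stretch is chr3:54360857-54361106 on the plus strand, Tgfbi chr13:56609336-56609522 on the plus strand, Tgfb2 chr1:186705990-186706239 on the minus strand and Tgfbr2 chr9:116175364-116175613 on the minus strand. Capitals mark matches, on either strand, to a TATA box searched as TATAAA, a SMAD box searched as CAGAC, an E-box searched as CANNTG and a cAMP response element searched as TGACGTCA.
Postn: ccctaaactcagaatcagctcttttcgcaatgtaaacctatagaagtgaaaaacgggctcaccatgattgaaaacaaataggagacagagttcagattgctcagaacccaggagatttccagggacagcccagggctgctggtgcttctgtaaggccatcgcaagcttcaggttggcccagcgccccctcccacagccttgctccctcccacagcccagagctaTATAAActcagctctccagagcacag
Tgfbi: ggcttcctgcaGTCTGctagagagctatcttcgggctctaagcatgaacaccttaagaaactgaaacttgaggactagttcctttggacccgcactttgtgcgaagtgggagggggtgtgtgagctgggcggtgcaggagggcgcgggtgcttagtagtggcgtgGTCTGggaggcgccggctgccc
Tgfb2: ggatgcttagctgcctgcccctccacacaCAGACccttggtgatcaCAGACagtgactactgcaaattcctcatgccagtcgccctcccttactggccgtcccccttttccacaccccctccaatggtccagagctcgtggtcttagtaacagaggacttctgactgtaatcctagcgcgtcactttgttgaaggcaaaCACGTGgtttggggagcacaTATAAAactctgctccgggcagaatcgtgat
Tgfbr2: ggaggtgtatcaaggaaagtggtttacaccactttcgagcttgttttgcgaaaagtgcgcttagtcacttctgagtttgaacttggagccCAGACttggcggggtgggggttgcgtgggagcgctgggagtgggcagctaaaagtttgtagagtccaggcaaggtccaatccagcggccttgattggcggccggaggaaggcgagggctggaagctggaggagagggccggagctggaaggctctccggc
Postn held 1 TATAAA, 26 bases before the RefSeq start, and no match to the other letters in this window. Tgfb2 also held 1 TATAAA, 31 bases before its start, with 2 SMAD boxes and 1 E-box. Tgfbi held 2 SMAD boxes and Tgfbr2 held 1. Among 32851 RefSeq windows of 250 bases, 12.4% held TATAAA, 42.2% CAGAC, 66.2% CANNTG and 1.55% TGACGTCA. A second RefSeq start of Postn lies 1842 bases upstream of the GENCODE start of the gene, and its window of 250 bases held 1 SMAD box and no TATAAA. Of the members, 8 had an entry among these promoters.

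The first question was how loss of PRDM16 changed the matrix proteins of the group. Periostin RNA rose with each cGT allele and was 3.05 times the WT mean in null ducts, the only member past both thresholds against WT. Postn (ENSMUSG00000027750, mm10 chromosome 3 from 54361109 to 54391037, plus strand) was at 130.2, 137 and 145 CPM in WT embryos 1 to 3. The heterozygotes were at 177, 209 and 178 CPM. The null embryos were at 352, 380.4 and 525 CPM. No group overlapped another, and every heterozygote lay between the WT and null ranges. These levels rest on 3500 or more reads in each library. The log2 fold change of null against WT was 1.60 (standard error 0.151, 95% interval 1.25 to 1.95, edgeR adjusted p = 0.00319).

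Against heterozygotes the null value of Postn was higher by 1.16 on the log2 scale (standard error 0.155, 95% interval 0.80 to 1.51, edgeR adjusted p = 0.0220). The heterozygotes were higher than WT by 0.45 (standard error 0.0686, 95% interval 0.30 to 0.60, edgeR adjusted p = 0.0465), under the log2 threshold of 0.5 that a call also required. Leaving out any 1 heterozygote raised the adjusted p of null against heterozygote to between 0.0758 and 0.164 in edgeR, and heterozygote against WT kept an adjusted p under 0.05 in 1 of 6 fits that left out 1 embryo. The 3 comparisons share libraries with one another, so they are not independent. On the mean log2 CPM scale the heterozygotes stood at 28.2% of the distance from WT to null. A fit over all 9 libraries on the number of cGT alleles gave a slope of 0.80 per allele (standard error 0.0871, edgeR adjusted p = 9.60e-04).

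Postn was not ordered by the mesenchyme markers. WT 1 and WT 2, high in mesenchyme markers, had the lowest Postn levels of the 9, while null 3 had the highest. Without these 3 libraries, and so against WT 3 alone, the log2 fold change of null against WT was 1.34 (edgeR adjusted p = 0.00227) and that of null against heterozygote 0.97 (edgeR adjusted p = 0.00150), while the heterozygote difference from WT 3 was 0.37 (edgeR adjusted p = 0.9998). The summed duct epithelium markers given above also rose from WT to heterozygote to null without overlap. Most of that sum was Oc90, an otoconial matrix protein, at 7243 to 8455, 8755 to 9174 and 10030 to 13370 CPM, with a log2 fold change of 0.53 in null against WT (edgeR adjusted p = 0.219). Epcam, a general epithelial adhesion molecule, overlapped between groups. The part of epithelial share in the Postn difference was not tested. In bulk RNA, a change in the number of cells of a type and a change in RNA per cell cannot be told apart.

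**Figure D1:**
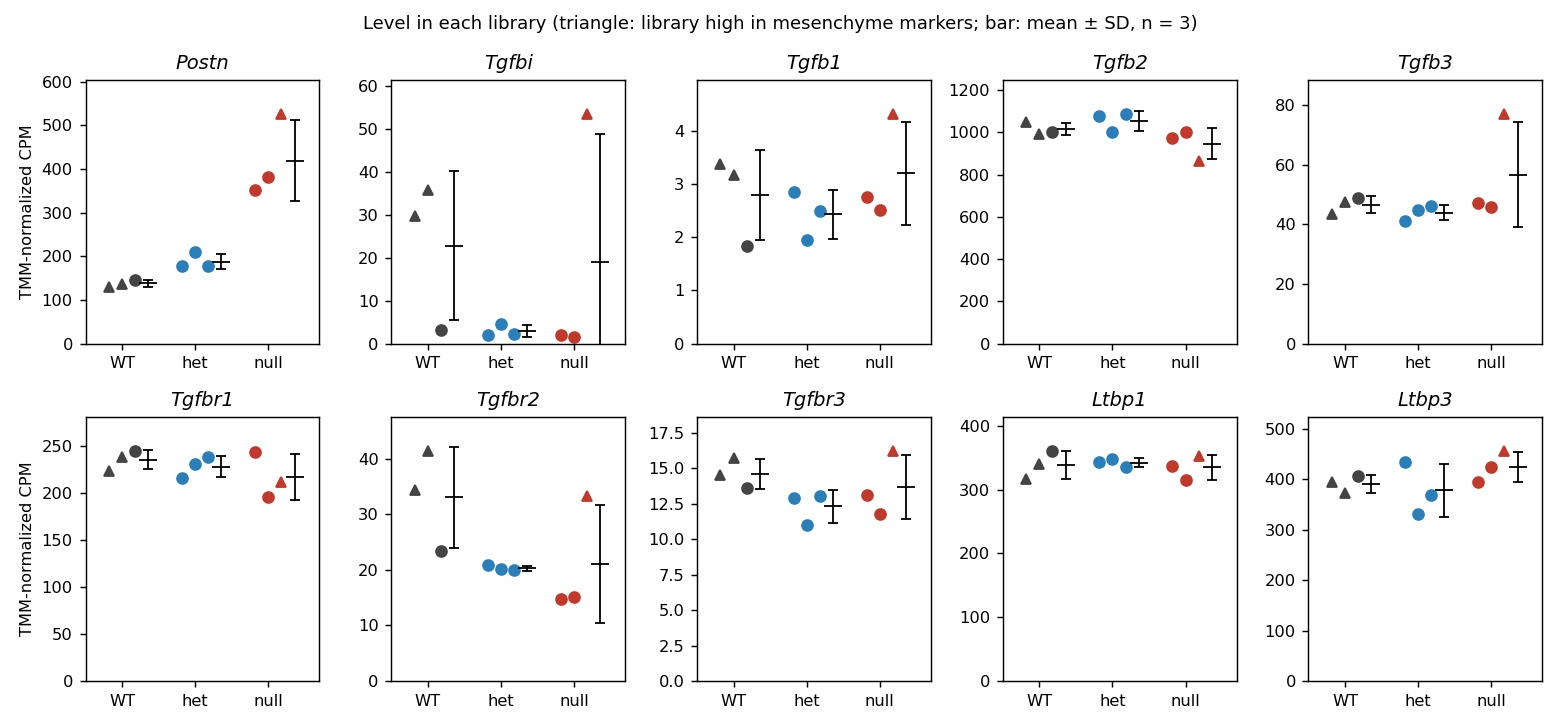
TMM-normalized CPM of the 10 members in each of the 9 libraries, by genotype, with each axis starting at 0. Triangles are the mesenchyme-high libraries WT 1, WT 2 and null 3, and bars are mean ± SD of 3 embryos. Postn climbs from 130.2 to 145 CPM in WT to 352 to 525 in null embryos, whereas Tgfbi is high in the triangles alone.

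TGFBI RNA, in contrast, separated libraries and not genotypes. Tgfbi (ENSMUSG00000035493, mm10 chromosome 13 from 56609523 to 56639562, plus strand) was at 29.7, 35.8 and 3.08 CPM in WT embryos 1 to 3. The heterozygotes were at 1.89, 4.54 and 2.23 CPM. The null embryos were at 1.98, 1.65 and 53.5 CPM. The 3 mesenchyme-high libraries held 29.7 to 53.5 CPM and the other 6 held 1.65 to 4.54, with no overlap. The log2 fold change of null against WT was -0.27 with a 95% interval from -3.29 to 2.74 (edgeR adjusted p = 0.951), too wide to exclude a large change in either direction. Heterozygotes differed from WT by -2.97 (edgeR adjusted p = 0.102) and null from heterozygotes by 2.72 (edgeR adjusted p = 0.449). Without the mesenchyme-high libraries null against WT was -0.77 (edgeR adjusted p = 0.650), heterozygote against WT -0.09 and null against heterozygote -0.67. Without null 3 the null against WT value was -3.66 (edgeR adjusted p = 0.0966), and without WT 3 the heterozygotes passed as lower at -3.49 (edgeR adjusted p = 3.10e-05). Each of those fits set WT 1 and WT 2, with or without WT 3, against libraries low in mesenchyme markers.

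**Figure D2:**
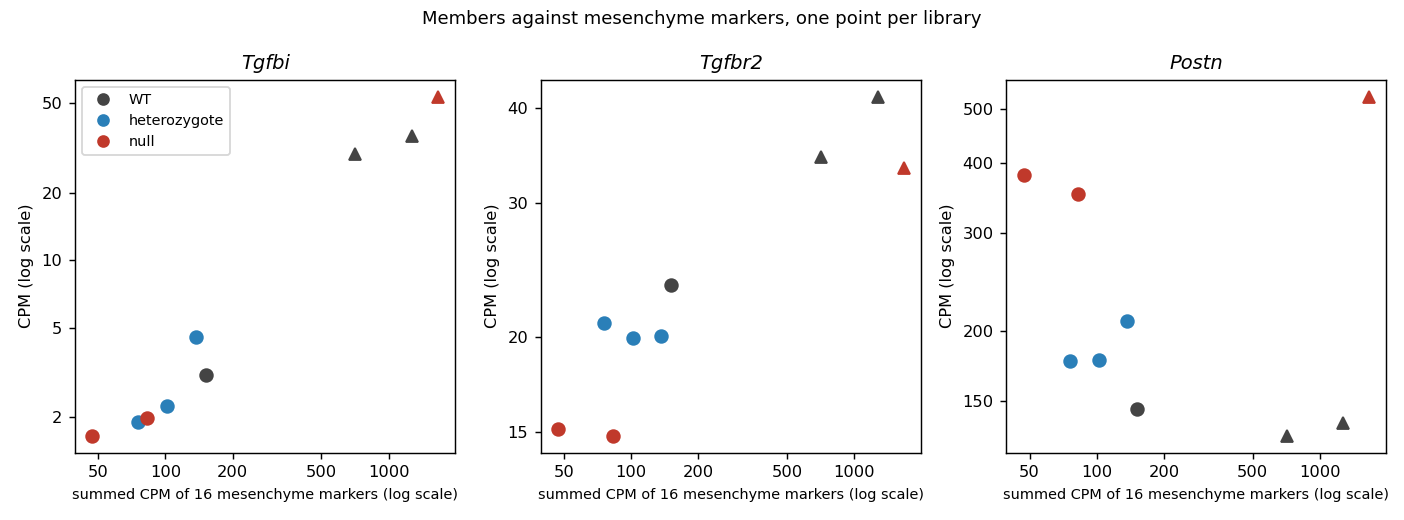
CPM of Tgfbi, Tgfbr2 and Postn against the summed CPM of 16 mesenchyme markers, both on log scales, with 1 point per library and triangles for the mesenchyme-high libraries. Tgfbi and Tgfbr2 are highest in the 3 libraries at 711 to 1666 CPM of markers. Postn is higher in null embryos than in WT on both sides of that gap. Null 3 is the only null embryo on the high side, which holds no heterozygote, and WT 3 is the only WT library on the low side.

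The ligands showed no change past the thresholds in any comparison. Tgfb2 was by far the most abundant. Tgfb2 (ENSMUSG00000039239, mm10 chromosome 1 from 186622792 to 186705989, minus strand) was at 1051, 994 and 1002 CPM in WT, 1078, 1001 and 1086 in heterozygotes, and 975, 1000.2 and 863 in null embryos. Null and WT overlapped, with a log2 fold change of -0.11 and a 95% interval of -0.33 to 0.12 (edgeR adjusted p = 0.714). The null embryos were just below all 3 heterozygotes, by -0.16 (edgeR adjusted p = 0.554).

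Tgfb3 (ENSMUSG00000021253, mm10 chromosome 12 from 86056745 to 86079041, minus strand) was at 43.5, 47.4 and 48.9 CPM in WT and 41.2, 44.7 and 46.1 in heterozygotes. The null embryos were at 47.1, 45.8 and 77.0 CPM, so that null 3 alone stood above the WT range. Null against WT was 0.28 (95% interval -0.18 to 0.73, edgeR adjusted p = 0.639), and without the mesenchyme-high libraries it was -0.07. Tgfb1 (ENSMUSG00000002603, mm10 chromosome 7 from 25687002 to 25705077, plus strand) was the scarcest member, on 54 to 103 reads per library. Its level was 3.37, 3.17 and 1.83 CPM in WT, 2.85, 1.95 and 2.48 in heterozygotes, and 2.76, 2.52 and 4.31 in null embryos. The groups overlapped, and the 3 mesenchyme-high libraries were the 3 highest. Null against WT was 0.19 with a 95% interval of -0.55 to 0.93 (edgeR adjusted p = 0.852), and without the mesenchyme-high libraries it was 0.53 (edgeR adjusted p = 0.674).

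Among the receptors, Tgfbr1 was even across genotypes and Tgfbr2 differed among libraries more than the other receptors. The type I receptor Tgfbr1 (ENSMUSG00000007613, mm10 chromosome 4 from 47353222 to 47414931, plus strand) was at 224, 239 and 244 CPM in WT, 216, 231 and 238 in heterozygotes, and 244, 196 and 212 in null embryos. The groups overlapped and null against WT was -0.12 (95% interval -0.35 to 0.10, edgeR adjusted p = 0.679).

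The type II receptor Tgfbr2 (ENSMUSG00000032440, mm10 chromosome 9 from 116084293 to 116175360, minus strand) was at 34.4, 41.3 and 23.4 CPM in WT. It was at 20.9, 20.1 and 19.9 CPM in heterozygotes and at 14.8, 15.2 and 33.4 in null embryos. The heterozygotes lay below every WT embryo, 2 null embryos lay below every heterozygote, and null 3 lay within the WT range. Heterozygotes differed from WT by -0.70 ± 0.171 (estimate ± standard error, edgeR adjusted p = 0.102). Null embryos differed from WT by -0.65 ± 0.343 (edgeR adjusted p = 0.505) and from heterozygotes by 0.06 (edgeR adjusted p = 0.953). The 3 mesenchyme-high libraries held 33.4 to 41.3 CPM and the other 6 held 14.8 to 23.4. Without the former, null against WT was -0.64 (edgeR adjusted p = 0.0994), heterozygote against WT -0.21 (edgeR adjusted p = 0.9998) and null against heterozygote -0.43 (edgeR adjusted p = 0.150), with 1 WT library left. In those 6 libraries the order was 1 WT, then 3 heterozygotes, then 2 null embryos, with no overlap. Leaving out null 3 alone gave -1.14 for null against WT (edgeR adjusted p = 0.0431), and leaving out WT 3 gave -0.90 for heterozygote against WT (edgeR adjusted p = 4.14e-04), both past the thresholds. As for Tgfbi, each of these fits set WT 1 and WT 2, with or without WT 3, against libraries low in mesenchyme markers.

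The co-receptor Tgfbr3, or betaglycan, which presents ligand to the type II receptor (ENSMUSG00000029287, mm10 chromosome 5 from 107106570 to 107289629, minus strand), was at 14.5, 15.7 and 13.6 CPM in WT. It was at 12.9, 11.0 and 13.0 CPM in heterozygotes and at 13.2, 11.8 and 16.2 in null embryos. The heterozygotes were below WT without overlap, by -0.25 (edgeR adjusted p = 0.374), and null against WT was -0.10 (95% interval -0.45 to 0.26, edgeR adjusted p = 0.842). Here too the mesenchyme-high libraries, at 14.5 to 16.2 CPM, were above the other 6 at 11.0 to 13.6, and without the former null against WT was -0.12 (edgeR adjusted p = 0.853).

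The latent binding proteins of the group were steady. Ltbp1, which anchors latent TGF-beta to the matrix (ENSMUSG00000001870, mm10 chromosome 17 from 75005568 to 75392512, plus strand), was at 316, 341 and 359.9 CPM in WT, 344, 348 and 335 in heterozygotes, and 337, 315 and 354 in null embryos. Ltbp3, a related carrier (ENSMUSG00000024940, mm10 chromosome 19 from 5740904 to 5758532, plus strand), was at 395, 372 and 407 CPM in WT, 434, 332 and 368 in heterozygotes, and 395, 424 and 455 in null embryos. The groups overlapped for both. Null against WT was -0.02 for Ltbp1 (95% interval -0.22 to 0.17, edgeR adjusted p = 0.942) and 0.11 for Ltbp3 (95% interval -0.08 to 0.31, edgeR adjusted p = 0.650).

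Across the 10 members, 1 (Postn) passed in null against WT, with thresholds of 0.05 for the adjusted p and 0.5 for the size of the log2 fold change. Of all 17168 genes tested, 1.71% passed. In the comparison of null with heterozygote, 1 member of 10 (Postn) passed, against 0.615% of all genes tested. In the comparison of heterozygote with WT, edgeR passed 0 members, against 0.151% of all genes. Of the 10, 4 had an unadjusted p under 0.05, against 13.1% of all genes. DESeq2 called 1 (Tgfbr2, lower) of its 298 calls over all genes, and limma-voom called 0 members. All 15 mesenchyme markers tested were lower in heterozygotes at an unadjusted p under 0.05. Along the number of cGT alleles 1 member passed, against 2.98% of all genes. Groups did not overlap for 1 member in null against WT, 3 in heterozygote against WT and 2 in null against heterozygote, where the shares over all genes were 19%, 18% and 18.2%. The median log2 fold change of the members was -0.06, -0.07 and 0.16 in null against WT, heterozygote against WT and null against heterozygote, and that of all genes was 0.01, 0.00 and 0.01.

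**Figure D3:**
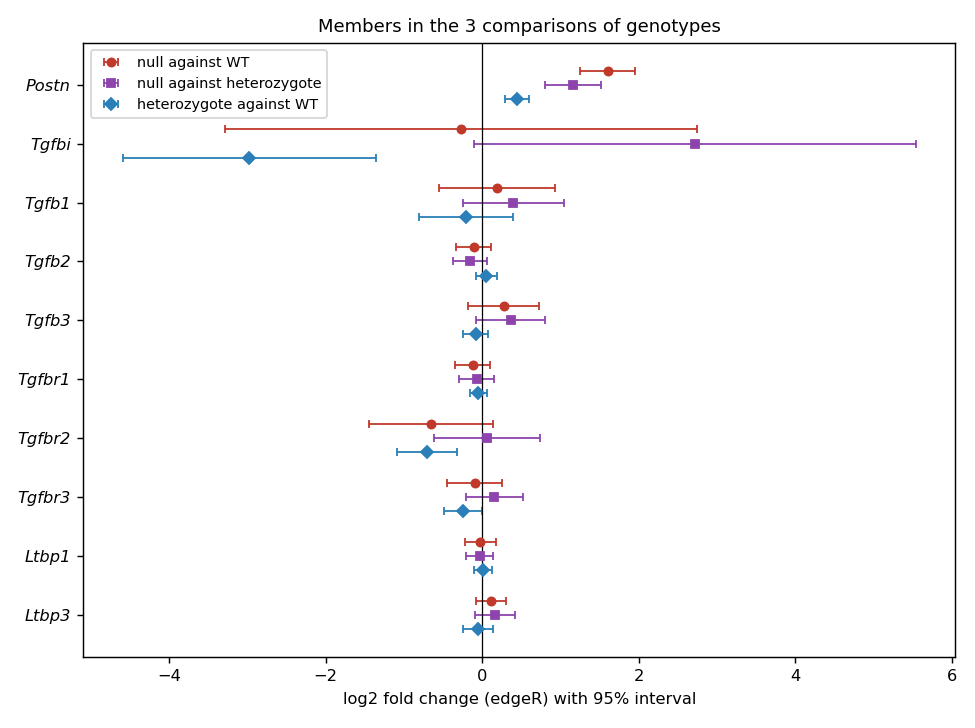
Log2 fold changes of the 10 members in the 3 comparisons of genotypes (points) with 95% intervals from edgeR (bars). Postn is above 0 in each comparison, the intervals of Tgfbi span several log2 units, and those of Tgfb2, Tgfbr1, Ltbp1 and Ltbp3 lie close to 0.

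Per length, the members spanned a wide range of levels. Levels between genes are CPM per kilobase of merged exons, as mean ± SD over 3 embryos. In WT the order was Tgfb2 at 175 ± 5.29, Ltbp3 at 43.2 ± 1.96, Tgfbr1 at 36.1 ± 1.61, Ltbp1 at 31.7 ± 2.04, Postn at 15.8 ± 0.864, Tgfb3 at 13.8 ± 0.830, Tgfbi at 6.06 ± 4.61, Tgfbr2 at 4.04 ± 1.10, Tgfbr3 at 2.23 ± 0.163 and Tgfb1 at 0.554 ± 0.166. Only Tgfbi and Tgfbr2 overlapped as neighbours, and with the longest transcript in place of merged exons Ltbp1 and Tgfbr1 exchanged places. In heterozygotes Postn stayed in place 5 at 21.6 ± 2.06. In null embryos it reached 48.2 ± 10.7, second to Tgfb2 at 163 ± 12.6 and overlapping Ltbp3 at 46.8 ± 3.34.

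The wider pathway was read from 5 lists holding 67 other genes. Of 65 tested in null against WT, 2 passed, both lower, beside 1.71% of all genes, so the share is read as no result about the lists. The 2 were Ltbp4 and Itgb6. Ltbp4, a latent binding protein of elastic fibres, was at 106, 109.7 and 103 CPM in WT. It was at 86.3, 74.4 and 72.0 CPM in heterozygotes and at 47.4, 36.1 and 62.5 in null embryos. The CPM ranges fell with the number of cGT alleles without overlap, but edgeR did not call null against heterozygote. The 6 edgeR fits of that comparison without 1 embryo gave -0.90 to -0.49, and 1 of them had an adjusted p under 0.05. Null embryos differed from WT by -1.13 ± 0.178 (edgeR adjusted p = 0.0235), and heterozygotes by -0.45 (edgeR adjusted p = 0.0453), under the fold threshold. The heterozygote difference kept an adjusted p under 0.05 in 2 of 6 edgeR fits without 1 embryo, and was -0.40 without the mesenchyme-high libraries. The Ltbp4 call held in 2 of the 6 fits that left out 1 embryo, with adjusted p of 0.0766 to 0.131 without WT 1, WT 2, WT 3 or null 1, and without the mesenchyme-high libraries the value was -1.29 (edgeR adjusted p = 0.00569).

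Itgb6, the beta subunit of an integrin that activates latent TGF-beta at epithelia, was at 13.8, 14.9 and 12.7 CPM in WT, 11.5, 6.81 and 8.44 in heterozygotes, and 5.16, 6.42 and 4.90 in null embryos. These groups were ordered by genotype without overlap as well, and edgeR did not call null against heterozygote here either. Null embryos differed from WT by -1.33 ± 0.163 (edgeR adjusted p = 0.00768) and heterozygotes by -0.64 (edgeR adjusted p = 0.142). The call was lost without WT 1 (edgeR adjusted p = 0.0581) and without WT 2 (edgeR adjusted p = 0.0687). Against WT 3 alone, without the mesenchyme-high libraries, the value was -1.13 (edgeR adjusted p = 0.124). Over the number of cGT alleles 3 of 65 pathway genes tested passed, beside 2.98% of all genes. Ltbp4 and Itgb6 fell by 0.56 and 0.66 on the log2 scale per allele (edgeR adjusted p = 0.00412 and 0.00387, and 0.0148 and 0.0985 without the mesenchyme-high libraries), and Fbn1, the fibrillin to which LTBPs attach, rose by 0.31 (edgeR adjusted p = 0.0129). Fbn1 was named after its values were seen, and it was at 144 to 173 CPM in WT, 179 to 209.9 in heterozygotes and 202 to 274 in null embryos. Its slope lost the call without WT 1 (edgeR adjusted p = 0.0616), without null 1 (0.0579) and without the mesenchyme-high libraries (0.20, edgeR adjusted p = 0.282).

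In null against WT, 12.2% of all genes had an unadjusted p under 0.05, and the counts at that p by list are to be read beside this share. Other fasciclin and latent binding genes had 1 of 7 tested lower (Ltbp4), 4 at that p and a median of -0.41. Genes of ligand activation had 1 of 16 lower (Itgb6), 2 at that p and a median of -0.0024. None of 8 receptor accessory genes passed, with a median of 0.03 and 1 gene at an unadjusted p under 0.05. Its leading genes were Pmepa1, a TGF-beta-induced inhibitor of the pathway, at 0.48 (edgeR adjusted p = 0.347), and Acvrl1, an endothelial type I receptor, at -1.36 (edgeR adjusted p = 0.686). Pmepa1 was at 0.24 without null 3 and at 0.29 without the mesenchyme-high libraries. Acvrl1 was at 3.66 to 7.29 CPM in the mesenchyme-high libraries and at 0.144 to 0.508 in the others, and without the former its value was -0.57 (edgeR adjusted p = 0.844).

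None of 14 Smads and Smad regulators passed, with a median of 0.03 and a range from -0.14 to 0.30, and 1 had an unadjusted p under 0.05. The inhibitory Smad6 was at 0.30 (edgeR adjusted p = 0.322) and Smad7 at 0.24 (edgeR adjusted p = 0.455). None of 20 transcriptional targets passed in the main edgeR fit, 5 had an unadjusted p under 0.05, and the median was 0.36. The targets with the smallest p were Acta2, a smooth muscle actin, at -3.42 on 2.04 CPM or less (edgeR adjusted p = 0.0681), and Cdkn1a, the cell cycle inhibitor p21, at 0.45 (edgeR adjusted p = 0.193). Acta2 had an adjusted p under 0.05 in 2 of 7 alternative settings and in 1 of 6 fits without 1 embryo. For Cdkn1a this held in 1 of 8 and 1 of 6. Over the 5 lists DESeq2 called 4 genes and limma-voom 2. The lists share Bgn, Col1a2 and Col3a1 with the mesenchyme markers. The median over the 65 genes was 0.09 in null against WT, beside 0.01 for all genes. In heterozygote against WT edgeR called 0 of 65 (9 by DESeq2, 0 by limma-voom), with 27 at an unadjusted p under 0.05, a share to be read beside the 13.1% of all genes and the 15 of 15 mesenchyme markers at that p. In null against heterozygote edgeR called 0 of 63 (2 by DESeq2, 0 by limma-voom), with 17 at an unadjusted p under 0.05 beside 11.4% of all genes.

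**Figure D4:**
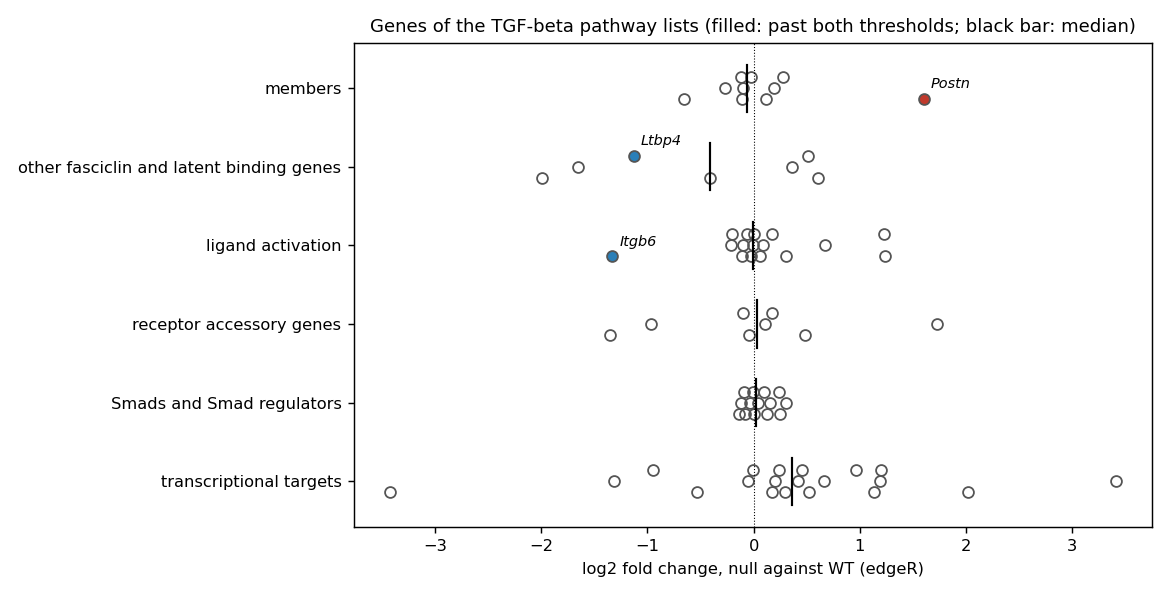
Log2 fold change of null against WT for each tested gene of the members and of the 5 pathway lists, with filled points past both thresholds and black bars at list medians. Postn is the only filled point above 0, and Ltbp4 and Itgb6 are the filled points below it.

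Genes most like Postn and Tgfbi were found by Pearson's r of log2 CPM over the 9 libraries, which share genotype and tissue composition, so r is a description only. For Postn these were Lhfp (r = 0.982), Pik3r1, a PI3-kinase regulatory subunit (0.982), Col6a1, a collagen VI chain (0.978), Cpm, carboxypeptidase M (0.973), and Mecom, a PRDM family regulator (0.973). Each of the 5 was itself called higher in null embryos, from 0.73 for Pik3r1 to 2.13 for Cpm on the log2 scale. They were chosen by likeness to Postn in the same libraries, so these calls are no separate result. For Tgfbi they were Adcy4, an adenylyl cyclase (0.993), Nid1, a basement membrane protein (0.990), Bgn, a matrix proteoglycan (0.987), Vcam1, an adhesion molecule (0.986), and Ifitm3 (0.986). None of these passed in null against WT. All 5 were higher in every mesenchyme-high library than in any other, which follows from their choice by likeness to Tgfbi in the same libraries. Bgn is also one of the mesenchyme markers. Between Postn and Tgfbi r was -0.04, and between Tgfbr2 and Tgfbi it was 0.918.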

How the data were processed

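The authors deposited raw read counts per Ensembl gene, without normalization, for 9 libraries of single-end TruSeq mRNA reads. Per the labels, the processing notes list cutadapt 1.13, STAR, HTSeq 0.6.1p1, DESeq2 and mm10. The annotation release and strand setting are not given in the sources used here. Exons of Tgfb2 share 124 bases with Gm29491, those of Tgfb3 163 with Gm37804 and 257 with Gm48008, and those of Tgfbr3 297 with Gm43422, and such reads may be split. Names, positions and exon lengths came from GENCODE M21, which holds 54165 of the genes.

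Groups followed the labelled genotypes. Each pair of genotypes was fitted on its 6 libraries with the quasi-likelihood test of edgeR 4.0.16 (R 4.3.3, TMM, filterByExpr with a minimum count of 10), with p-values adjusted over all genes tested and calls required an adjusted p under 0.05 with a log2 fold change past 0.5 in size. The allele trend used all 9 libraries and no fold threshold. The labels and methods name separate embryos, and 3 against 3 cannot give an exact two-sided p below 0.1. Log2 CPM for the likeness of genes used a prior count of 2. Fits were tested on simulated data.

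Members and gene lists were chosen with earlier results of these data known. Named genes are Prdm16, the members, pathway genes called in a comparison of 2 genotypes or, in a list without a call, the 2 with the smallest p in null against WT, the 5 most like Postn and Tgfbi, and the 2 most abundant markers of a list. Alternatives were DESeq2 1.42.0, limma-voom (limma 3.58.1), RLE scaling, other filters and fold thresholds, a replicate block, all 9 libraries in 1 fit and leaving out each embryo. Leaving out the mesenchyme-high libraries, those with a marker sum over 3 times the median, was chosen after seeing the data, with the remaining 6 libraries in 1 fit.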

Additional observations from a re-analysis of the deposited data

How the results depend on the processing

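The rise of Postn in null against WT kept its direction and its call under each of the alternatives run, from 1.34 to 1.61 on the log2 scale, and from 1.41 to 1.72 when 1 embryo was left out. Null against heterozygote lost the edgeR call without any 1 of the 3 heterozygotes (adjusted p = 0.0758 to 0.164) and ranged from 0.96 to 1.27 over the fits without 1 embryo. Heterozygote against WT, 0.45, had an adjusted p of 0.0577 with limma-voom (0.45), 0.666 with all 9 libraries in 1 fit (0.45) and 0.9998 without the mesenchyme-high libraries (0.37), and ranged from 0.37 to 0.49 without 1 embryo, with an adjusted p under 0.05 in 1 of 6 fits. The causes of these differences were not tested.

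Deviations from the genotype means correlated from -0.284 to 0.202 between same-numbered libraries and from -0.327 to 0.349 between differently numbered ones. These ranges overlap, so they can neither show nor exclude that the replicate numbers shared by the groups pair the embryos. With the replicate number as a block, Postn was 1.58 in null against WT (edgeR adjusted p = 0.0102), 0.45 in heterozygote against WT and 1.14 in null against heterozygote, Tgfbi was -2.36 in null against WT (edgeR adjusted p = 0.746), 0.97 in null against heterozygote and -1.04 per allele in the trend, 2 members (Tgfbi and Tgfbr2) were called lower in heterozygotes, Ltbp4 lost its call in null against WT (edgeR adjusted p = 0.0604), and 1 pathway gene was called there and 6 in heterozygote against WT.

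Counts of calls moved as follows. Members called lower were 0 in each comparison, but 1 in null against WT without null 3, 1 with DESeq2, 2 without the filter and 0 to 2 without 1 embryo in heterozygote against WT, and 0 to 2 without 1 embryo in the trend. Members called higher were 1 in heterozygote against WT without a fold threshold and 0 to 1 without 1 embryo in null against heterozygote. Pathway calls were 4 with DESeq2, 4 without the filter and 0 to 4 without 1 embryo in null against WT. In heterozygote against WT they were 9, 19 and 0 to 13, with 1 without a fold threshold and 1 without the mesenchyme-high libraries. In null against heterozygote they were 2, 6 and 0 to 2, with 2 without the mesenchyme-high libraries, and in the trend 7 with DESeq2 and 2 to 15 without 1 embryo.

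Over all genes, the 293 calls of null against WT became 609 with DESeq2, 476 without the filter, 133 with the block, 468 with all 9 libraries, 167 at a log2 threshold of 1 and 68 to 446 without 1 embryo. The 26 of heterozygote against WT became 298, 684, 197, 0 and 9 under the same settings, 11 with limma-voom, 45 without a fold threshold, 14 without the mesenchyme-high libraries and 0 to 505 without 1 embryo. The 105 of null against heterozygote became 360, 366, 52, 164 and 62, then 201 without the mesenchyme-high libraries and 12 to 182 without 1 embryo. The 530 of the trend became 1036 with DESeq2, 206 without the mesenchyme-high libraries and 273 to 1013 without 1 embryo.

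Signs turned for members whose intervals held 0. Without the mesenchyme-high libraries Tgfb3 was -0.070 in null against WT and -0.015 in the trend, Tgfb1 0.40 and Ltbp1 -0.072 in heterozygote against WT, and Tgfbi -0.67 and Tgfbr2 -0.43 in null against heterozygote, where Tgfbr2 was also -0.075 with limma-voom and -0.052 with the block. Without 1 embryo, null against WT ranged from -3.66 to 0.28 for Tgfbi, -0.080 to 0.35 for Tgfb1, -0.0070 to 0.42 for Tgfb3, -0.23 to 0.0093 for Tgfbr3 and -0.065 to 0.029 for Ltbp1. Heterozygote against WT ranged from -0.035 to 0.059 for Ltbp1 and -0.16 to 0.034 for Ltbp3. Null against heterozygote ranged from -0.68 to 3.27 for Tgfbi, -0.16 to 0.0031 for Tgfbr1, -0.44 to 0.26 for Tgfbr2 and -0.071 to 0.016 for Ltbp1. The trend ranged from -2.01 to 0.21 for Tgfbi, -0.052 to 0.19 for Tgfb1, -0.0094 to 0.19 for Tgfb3 and -0.032 to 0.014 for Ltbp1. Without null 3 the trend passed as lower for Tgfbi (-2.01, edgeR adjusted p = 0.0176) and Tgfbr2 (-0.58, edgeR adjusted p = 0.00488). The mesenchyme-high libraries left in that fit were WT 1 and WT 2. Tgfb1 rests on 54 to 103 reads per library.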
